A study of Canis lupus familiaris with 12 samples.

Results

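WNT5A, WNT5B, FZD6, FZD7 and TLE1 are genes of Wnt signalling, and their values are described here on 12 two-colour cDNA arrays of MDCK, an epithelial cell line from dog kidney. They were picked by gene symbol, and they are 5 of 4325 genes and 15 of 13056 probes. The 15 probes come from 8 cDNA clones: 1 each for WNT5A (Entrez 7474) and WNT5B (Entrez 81029), and 2 each for FZD6 (Entrez 8323), FZD7 (Entrez 8324) and TLE1 (Entrez 7088). All 5 had values on every array and passed the requirement of both arrays per sample. They were picked with the ratios of these same arrays already seen, so their ratios to the control are a description and carry no test.

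Wnt proteins are secreted lipid-modified ligands that bind Frizzled receptors, which span the membrane several times and pass the signal to Dishevelled. In the canonical branch beta-catenin then builds up and activates genes together with TCF and LEF factors, which TLE proteins of the Groucho family otherwise hold in a repressed state. WNT5A and WNT5B are known mainly for non-canonical signals that act on cell polarity, movement and calcium. In the kidney, Wnt signalling is known for its part in the formation of tubules.

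The tested cells were MDCK transfectants of Slug (the product of SNAI2), Snail (the product of SNAI1) or E47 (a product of TCF3), factors known to repress the E-cadherin gene CDH1. Samples 1 and 2 of every transfectant were each put on an array with the transfectant in Cy5 and on another with it in Cy3, so that a transfectant has 4 arrays. RNA of MDCK-CMV cells, the control, was in the other channel of all 12 arrays. The labels do not say whether samples 1 and 2 were separate clones or cultures, so that any p measures only the spread between these samples, and the control's own spread does not enter a test of a ratio against 0.

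The probes carry human Entrez IDs while the RNA is canine, and how well each clone binds the dog transcript was not tested. Ratios cannot be compared between genes as levels, and they cannot show how much of a marker the cells hold. In bulk RNA, fewer cells that express a gene and less RNA per cell cannot be told apart.

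Values are log2 ratios of transfectant over control, and their direction is assumed. The labels give the dye of each sample but not the numerator of the ratio. As deposited, 17 pairs of arrays with the same dye in the title but from different samples correlated below 0 (r from -0.609 to -0.103). The 17 are the pairs in which 1 array was turned as described next. All other pairs with the same dye in the title correlated above 0. The signs of 5 arrays, both of Slug 1, both of Snail 2 and the E47 2 array titled Cy5, were therefore turned, and CDH1 lies below 0 by that choice. If the opposite sign holds for a transfectant, every value given for it changes sign, and higher and lower exchange. After turning, the log2 ratio of CDH1 was -2.46 in Slug, -2.07 in Snail and -2.07 in E47. As the signs were chosen to put CDH1 below 0, its direction cannot check them. In the same order of transfectants SNAI1 had 0.67, 1.70 and 0.17, and TCF3 had 1.11, -0.05 and 0.71. SNAI1 had its highest mean in Snail, but its Snail and Slug arrays overlapped. The lowest Snail array had 0.87 and the highest Slug array 0.91. TCF3 was higher in Slug than in E47, so that it does not single out E47. CDH1 is a mean of 3 clones that disagree: clones 1 and 2 had means between -4.12 and -2.74, whereas clone 3 had -0.06 in Slug, 0.23 in Snail and 0.29 in E47. No probe is named SNAI2. Values were present for 10654 to 12982 probes per array, and precision is limited by how few arrays there are.

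WNT5A stood high in all 3 transfectants, but its size differed between the numbered samples of Snail and of E47. In Slug its log2 ratio was 2.14 (Cy5) and 2.70 (Cy3) in sample 1, and 3.53 and 2.78 in sample 2. In Snail it was 1.62 and 1.30 in sample 1, and 3.91 and 3.60 in sample 2. In E47 it was 1.39 and 0.41 in sample 1, and 3.66 and 3.40 in sample 2. All 12 arrays lay above 0, and the arrays of the 3 transfectants overlapped. The means were 2.79 ± 0.52 in Slug, 2.61 ± 1.62 in Snail and 2.21 ± 1.86 in E47 (SD, n = 2 each), which are 6.90-fold, 6.11-fold and 4.64-fold over the control.

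**Figure D1:**
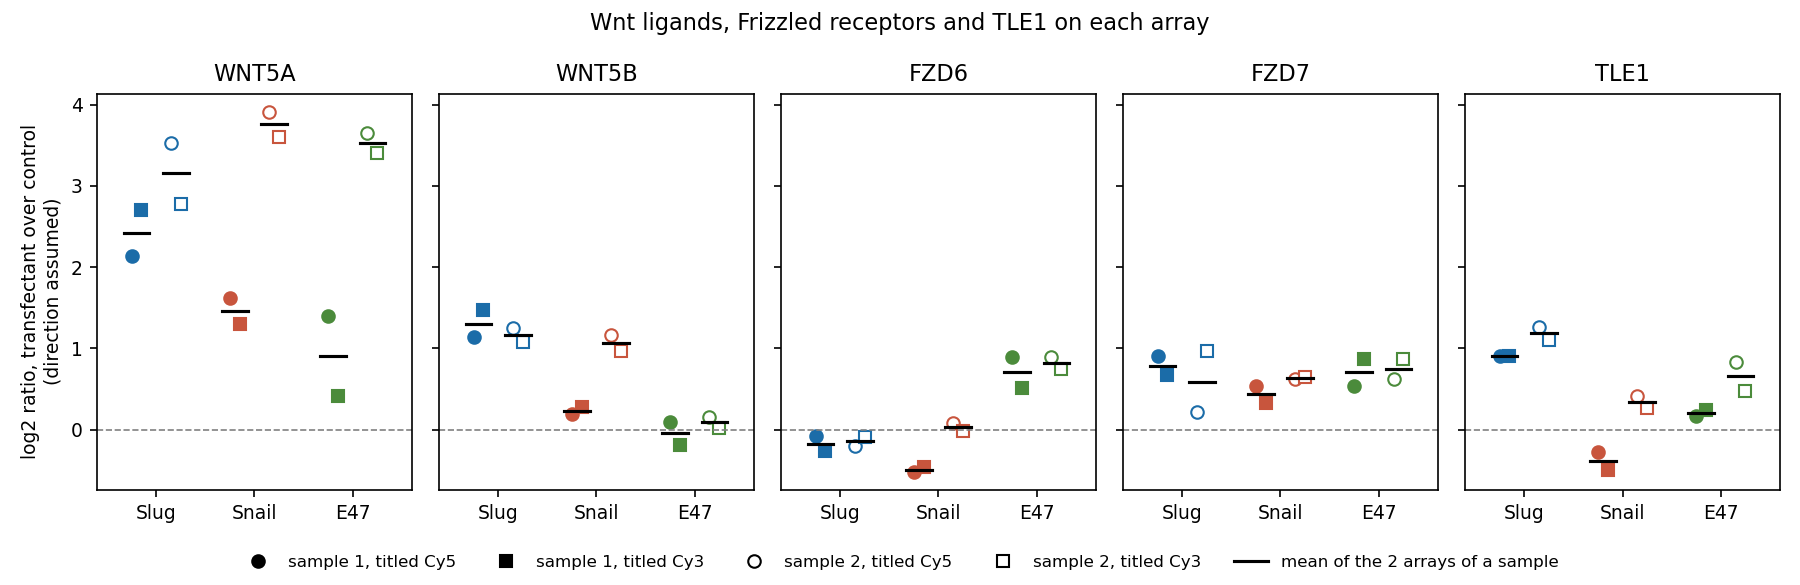
Log2 ratio of transfectant over control (vertical axis, direction assumed) for WNT5A, WNT5B, FZD6, FZD7 and TLE1, with Slug, Snail and E47 along the horizontal axis, a point per array and a bar for the mean of the 2 arrays of a sample. WNT5A lies between 3.40 and 3.91 on the sample 2 arrays of Snail and E47 and between 0.41 and 1.62 on their sample 1 arrays, FZD6 lies between 0.51 and 0.90 on the E47 arrays and at most at 0.09 on the others, and FZD7 lies above 0 on all 12.

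Sample 2 exceeded sample 1 for WNT5A by 0.73 in Slug, 2.29 in Snail and 2.62 in E47 on the log2 scale. Over all genes the median absolute difference between the samples was 0.206 in Slug, 0.225 in Snail and 0.180 in E47. In Snail, 3 of 3768 genes differed by at least as much as WNT5A: WNT5A itself, EPCAM, an epithelial adhesion protein (-2.82, sample 2 minus sample 1), and PTPRZ1, a receptor phosphatase (-2.49). In E47 there were 2 of 3966, WNT5A and GNG11, a G protein gamma subunit (2.63). In Slug, 274 of 4053 genes (6.76%) differed by as much as WNT5A or more. These other genes were picked for that difference and are a description.

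WNT5A also ranked near the top of each library. Counted from the highest ratio, it was 4th of 4216 genes in Slug 2 and 9th of 4126 in Slug 1. It was 2nd of 3960 in Snail 2 and 8th of 4062 in Snail 1, and 3rd of 4226 in E47 2 and 62nd of 4026 in E47 1. Its pair of spots differed most on the E47 1 array titled Cy3, with -0.48 and 1.31, a gap of 1.79, while over 2093 clones with duplicate spots the median gap was 0.284. The lowest WNT5A value therefore rests on spots that lie far apart.

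**Figure D2:**
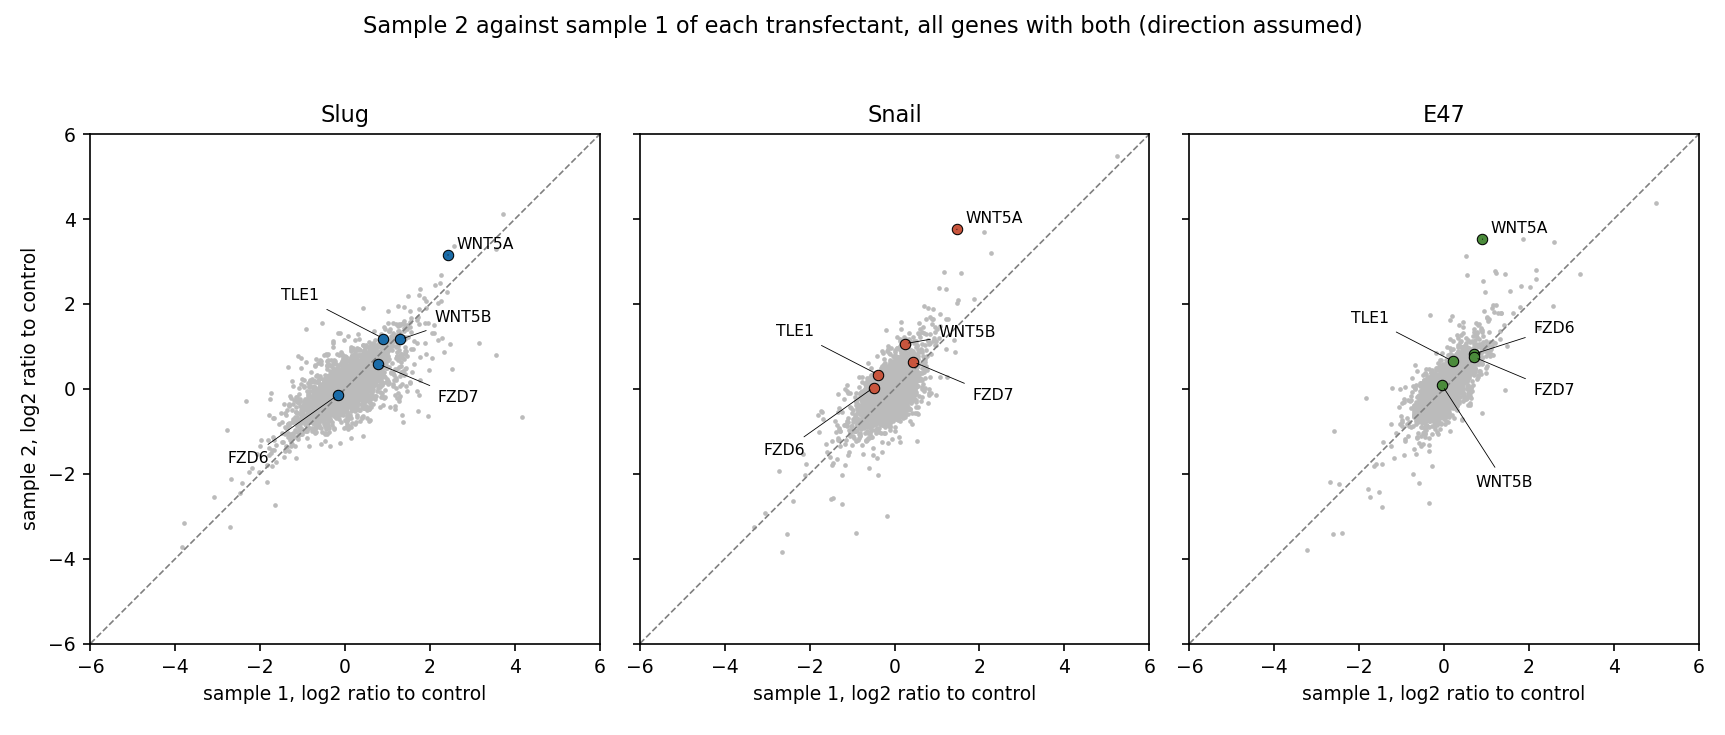
Log2 ratio to the control (direction assumed) in sample 2 (vertical axis) against sample 1 (horizontal axis) for Slug, Snail and E47, with a grey point per gene, the 5 Wnt genes in colour and a dashed line of equality. WNT5A lies 2.29 above the line in Snail and 2.62 above it in E47. FZD7, drawn as the mean of clones that differ, lies within 0.21 of the line in all 3 panels.

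Of other measures, some differed between the same samples and some lay close together, as CDH1 in Snail and the fibroblast or mesenchymal markers did. SNAI1 had a log2 ratio of 2.37 in Snail 2 and 1.04 in Snail 1. CDH1 had -2.36 in E47 2 and -1.79 in E47 1, and -2.03 in Snail 2 and -2.12 in Snail 1. The mean of the epithelial markers with a value was -1.41 in E47 2 (7 genes) and -0.65 in E47 1 (6 genes), and -1.56 in Snail 2 (6 genes) and -1.28 in Snail 1 (7 genes). That of the fibroblast or mesenchymal markers was 1.29 in E47 2 and 1.25 in E47 1 (7 genes), and 1.25 in Snail 2 and 1.20 in Snail 1 (6 genes). The epithelial means of a pair are over different sets of genes. The part of all these measures in the WNT5A difference was not tested.

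WNT5B, a close paralog of WNT5A, was high in Slug, high in 1 of 2 Snail samples and near the control in E47. In Slug it had log2 ratios of 1.14 and 1.47 in sample 1, and 1.26 and 1.08 in sample 2. In Snail it had 0.19 and 0.28 in sample 1, and 1.16 and 0.97 in sample 2. In E47 it had 0.10 and -0.19 in sample 1, and 0.15 and 0.02 in sample 2. Neither the Slug nor the Snail arrays overlapped those of E47, whereas Slug and Snail overlapped each other. Snail and E47 were barely apart, at 0.19 for the lowest Snail array and 0.15 for the highest E47 array. The duplicate spots of WNT5B had a median gap of 0.33. The 4 arrays of a transfectant come from 2 samples. How often arrays fail to overlap over all genes was not tested, here and for the genes below. The means were 1.23 ± 0.10 in Slug (2.35-fold), 0.65 ± 0.59 in Snail (1.57-fold) and 0.02 ± 0.10 in E47 (SD, n = 2 each). In Snail, 117 of 3768 genes (3.11%) differed between samples as much as WNT5B did, by 0.83 or more.

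Whether the WNT5A clone also bound WNT5B RNA, or the reverse, was not tested. On the E47 2 arrays WNT5A had 3.66 and 3.40 where WNT5B had 0.15 and 0.02. Across the 12 arrays the ligands had a Pearson r of 0.52, given as a description of arrays that share samples and the control.

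FZD6, a Frizzled receptor known for its part in planar cell polarity, was above the control in E47 and slightly below it or near it elsewhere. In E47 it had log2 ratios of 0.90 and 0.51 in sample 1, and 0.90 and 0.75 in sample 2. In Slug it had -0.08 and -0.27, and -0.20 and -0.09. In Snail it had -0.52 and -0.47 in sample 1, and 0.09 and -0.02 in sample 2. The E47 arrays overlapped neither those of Slug nor those of Snail. The means were -0.16 ± 0.02 in Slug, -0.23 ± 0.37 in Snail and 0.76 ± 0.08 in E47 (SD, n = 2 each), the last being 1.70-fold. Both FZD6 clones were above 0 on all 4 E47 arrays, with means of 0.67 and 0.86. They differed in Snail, where clone 1 had 0.08 ± 0.48 and clone 2 had -0.54 ± 0.27. For clone 1 the Snail and E47 arrays overlapped. It had 0.56 on the Snail 2 array titled Cy5 and 0.38 on the E47 1 array titled Cy3. In Slug clone 1 had -0.33 ± 0.19 and clone 2, which has a single spot, had 0.01 ± 0.15.

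FZD7, a Frizzled receptor that can act in both branches of the pathway, was modestly above the control everywhere. Its log2 ratios were 0.90, 0.67, 0.21 and 0.96 on the Slug arrays (sample 1 Cy5 and Cy3, then sample 2 Cy5 and Cy3). They were 0.54, 0.33, 0.63 and 0.65 on the Snail arrays, and 0.54, 0.87, 0.63 and 0.87 on the E47 arrays. All 12 were above 0, and the 3 transfectants overlapped. The means were 0.69 ± 0.14 in Slug (1.61-fold), 0.54 ± 0.15 in Snail (1.45-fold) and 0.73 ± 0.03 in E47 (1.66-fold; SD, n = 2 each). As a mean over both clones its numbered samples lay close together, with differences of -0.20 in Slug, 0.21 in Snail and 0.04 in E47 (sample 2 minus sample 1). In E47 the clones moved in opposite directions, by 0.51 for clone 1 and -0.42 for clone 2, which nearly cancel in the mean. In Snail they moved by -0.07 and 0.49, and in Slug by -0.08 and -0.31.

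The pair of FZD7 clones did not rank the transfectants alike. Clone 1 had means of 0.93 ± 0.06 in Slug, 0.34 ± 0.05 in Snail and 0.74 ± 0.36 in E47, and clone 2 had 0.44 ± 0.22, 0.73 ± 0.34 and 0.71 ± 0.30 (SD, n = 2 each). These SDs leave out the gap between duplicate spots, whose median was 0.68 for clone 1 and 0.47 for clone 2, beside 0.284 over all clones with duplicate spots. On the Slug 1 array titled Cy5 the spots of clone 1 had 0.56 and 2.17. Clone 2 was at -0.48 on the Slug 2 array titled Cy5 and at 1.05 on its Cy3 partner. Across the 12 arrays the clones had an r of -0.45. The height of FZD7 above the control was thus seen with both clones, but its order among transfectants was not.

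TLE1, a corepressor of the Groucho family that binds TCF and LEF factors, had its highest mean over both clones in Slug. There it had log2 ratios of 0.90 and 0.90 in sample 1, and 1.27 and 1.11 in sample 2. In Snail it had -0.28 and -0.50 in sample 1, and 0.41 and 0.27 in sample 2. In E47 it had 0.17 and 0.24 in sample 1, and 0.84 and 0.47 in sample 2. The Slug arrays overlapped neither those of Snail nor those of E47, which overlapped each other. The means were 1.04 ± 0.20 in Slug (2.06-fold), -0.03 ± 0.51 in Snail and 0.43 ± 0.32 in E47 (SD, n = 2 each).

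The TLE1 mean hides unequal clones. Clone 1 had 1.97, 1.83, 2.38 and 2.01 on the Slug arrays, a mean of 2.05 ± 0.21 or 4.14-fold. It had 0.05, -0.09, 1.14 and 0.93 on the Snail arrays (mean 0.51 ± 0.74) and 0.27, 0.25, 1.42 and 0.91 on the E47 arrays (mean 0.71 ± 0.64). Clone 2 lay near the control in Slug and E47 and below it in Snail, with means of 0.04 ± 0.19 in Slug, -0.56 ± 0.28 in Snail and 0.15 ± 0.01 in E47 (SD, n = 2 each). Both clones ranked Snail lowest, but the height of Slug above E47 was seen with clone 1 alone: for clone 2 the Slug and E47 arrays overlapped, and the E47 mean was the higher. Whether the clones bind different transcripts of TLE1 was not tested.

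**Figure D3:**
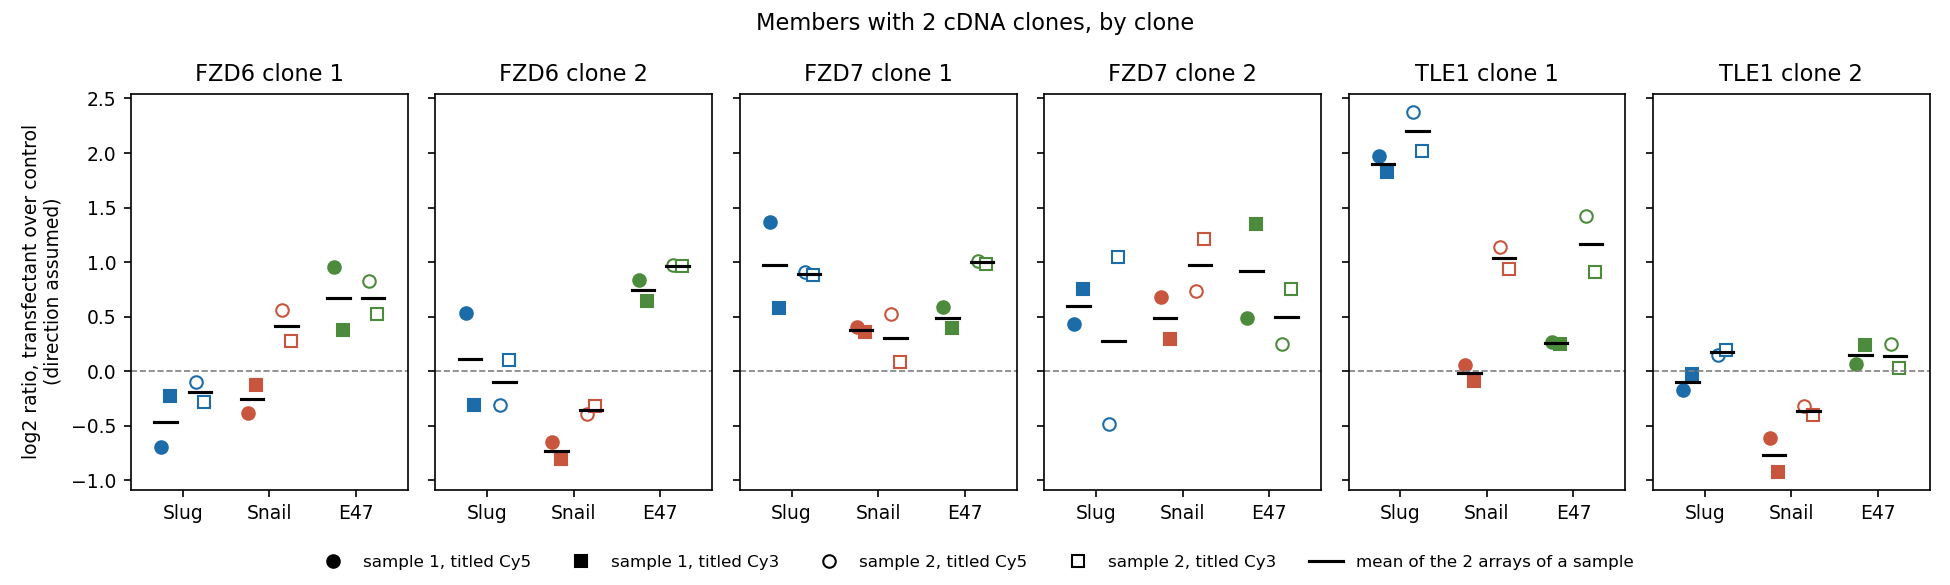
Log2 ratio of transfectant over control (vertical axis, direction assumed) for each of the 2 clones of FZD6, FZD7 and TLE1, with Slug, Snail and E47 along the horizontal axis, a point per array and a bar for the mean of the 2 arrays of a sample. TLE1 clone 1 lies between 1.83 and 2.38 in Slug where clone 2 lies between -0.17 and 0.20, and both FZD6 clones lie above 0 on all E47 arrays.

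Ordered by mean, WNT5A ran Slug, Snail, E47 with overlapping arrays throughout. WNT5B ran in the same order, with a narrow break (no overlap of arrays) between Snail and E47. TLE1 ran Slug, E47, Snail with its break after Slug, a break that clone 2 did not show. FZD6 ran E47, Slug, Snail with its break after E47. FZD6 clone 1 ran E47, Snail, Slug, and its E47 and Snail arrays overlapped. FZD7 ran E47, Slug, Snail with no break. How often such breaks occur over all genes was not tested, and as the members were picked on these ratios, nothing is read from the breaks. Sample 2 was above sample 1 in all 3 transfectants for WNT5A, TLE1 and FZD6, the last by 0.03 in Slug, 0.53 in Snail and 0.12 in E47. In Slug, 92.7% of 4053 genes differed by as much as FZD6 or more, and its clones moved in opposite directions (0.27 and -0.21). For TLE1 the gap was 0.29 in Slug, 0.73 in Snail and 0.45 in E47, where its clone 2 had -0.01. How many of all genes share this direction was not tested. The labels do not say whether the sample numbers pair the samples of different transfectants. By the dog RefSeq table the 5 genes lie on 5 different chromosomes.

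In limma's fit over all genes, 4 of the 5 were called higher in Slug (WNT5A, WNT5B, FZD7 and TLE1) and 0 lower (also 0 at an unadjusted p under 0.05), where 12.2% of 4053 genes were called higher and 9.62% lower. FZD7 alone was called higher in Snail, with 2.15% of 3768 genes higher and 5.07% lower over the whole table. FZD6 and FZD7 were called higher in E47, with 3.81% of 3966 genes higher and 1.49% lower. A gene was called when its Benjamini-Hochberg adjusted p over all genes tested was under 0.05. As the members were picked on these ratios, nothing is read from the counts. WNT5A and FZD7 lost the Slug call without Slug 1 (3.15 and 0.59), and WNT5A and TLE1 lost it without Slug 2 (2.42 and 0.90). FZD7 lost the Snail call without either Snail or either E47 sample (0.43 to 0.64), with either dye alone and with the replicate number as a block. WNT5A, not called in Snail, was called higher there with that block, without either Slug or either E47 sample, with arrays centred or scaled, over genes on all 12 arrays, with Cy5 alone, with Snail fitted alone and with the sample as a random block over 12 arrays. It was also called in E47 with the block and without E47 1 (3.53). WNT5B was called in Snail without Snail 1 (1.06). FZD6 and FZD7 lost the E47 call without E47 1 (0.82 and 0.75) or E47 2 (0.71 and 0.71).

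Between transfectants, TLE1 was called higher in Slug than in Snail, with means of 1.04 and -0.03. It lost the call without Slug 1 (difference 1.21), Slug 2 (0.93) or Snail 1 (0.71), with arrays scaled to the same spread (0.85) and with either dye alone. Over the whole table, 9.14% of 3675 genes were higher and 4.08% lower in Slug than in Snail. No member was called between Slug and E47, where 0.262% of 3816 genes were higher and 0.524% lower, or between Snail and E47, where 0.166% of 3617 genes were higher and 2.41% lower. At an unadjusted p under 0.05 limma gave 1 member higher and 1 lower in each of these contrasts. The largest member differences in the contrasts with E47 were WNT5B, 1.21 higher in Slug than in E47, and FZD6, 0.92 lower in Slug than in E47 and 0.99 lower in Snail than in E47. The control cancels in these contrasts where the signs are right.

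Genes whose 12 array values followed each member most closely were taken from 3536 genes with a value on all 12 arrays. For WNT5A they were MSN, the actin linker moesin, with a Pearson r of 0.89, FMOD, the matrix proteoglycan fibromodulin (0.87), and RAP1B, a small GTPase (0.86). MSN had mean log2 ratios of 1.24 in Slug, 1.33 in Snail and 1.15 in E47, whereas RAP1B stayed within 0.13 of the control. For WNT5B they were LUM, the matrix proteoglycan lumican (0.94), NUDT9, an ADP-ribose hydrolase (0.91), and NUCB2, a calcium-binding protein (0.88). LUM had means of 3.93 in Slug, 2.16 in Snail and 0.25 in E47.

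For FZD6 the closest were C8orf76 (0.95), BNIP3L, a mitochondrial protein of the BCL2 group (0.93), and TOPORS, a ubiquitin and SUMO ligase (0.91). C8orf76 had means of -0.44 in Slug, -0.56 in Snail and 1.03 in E47. For FZD7 they were FAM168A (0.85), DDX21, an RNA helicase (0.81), and CAPRIN1, an RNA-binding protein (0.80), and the means of FAM168A were 0.14, -0.09 and 0.11. For TLE1 they were HGF, the ligand of the receptor MET (0.96), BBC3, the apoptosis inducer PUMA (0.95), and MYOF, a membrane repair protein (0.94), and HGF had means of 0.91, -0.06 and 0.44. These r values are the highest of 3536 over arrays that share samples and the control, and a likeness in pattern says nothing of size. For FZD6, FZD7 and TLE1 they refer to the mean of 2 clones, whose r with each other was 0.52, -0.45 and 0.52. Whether the genes named follow the single clones was not tested.

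The rest of the pathway was read from a list of 168 other Wnt genes, written from textbook knowledge with earlier results of these data known, of which 75 are on the array. In Slug, 19 of 74 were higher and 0 lower (24 and 5 at an unadjusted p under 0.05 in limma), and the median log2 ratio was 0.22, against 0.025 over all genes. In Snail, 2 of 70 were higher and 3 lower, with a median of -0.08 against -0.05. In E47, 5 of 72 were higher and 0 lower (12 and 0 unadjusted), with a median of 0.12 against 0.0083. The share called was 25.7% in Slug, 7.14% in Snail and 6.94% in E47, beside 21.8%, 7.22% and 5.29% over all genes. The counts by role below stand beside 12.2% of all genes higher in Slug, 2.15% in Snail and 3.81% in E47. Whether a role held more than its share was not tested. Under the opposite sign for a transfectant, higher and lower counts trade places.

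The Slug count depended on single libraries and on scale: 6 of 73 were called without Slug 1 (8.22%, with 8.04% over all genes) and 10 without Slug 2 (13.5%, with 14.7%). The Slug arrays had a wider spread of ratios (SD 0.640 to 0.695) than the others (0.446 to 0.586), and with all arrays scaled to the same spread 11 of 74 were called (14.9%, with 10.9% over all genes). In Snail, 1 was called without either Snail sample and 2 without either E47 sample. In E47, limma called 0 without E47 2 (8 at an unadjusted p under 0.05) and 3 without E47 1.

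Among ligands other than the pair above, WNT7A alone of 6 tested was higher in Slug. It had log2 ratios of 0.60 in Slug 2 and 0.48 in Slug 1, a mean of 0.54 ± 0.15 (SE, n = 2, limma adjusted p = 0.0342), and lost the call without either. The SE here and below is limma's, from a spread shared by the 3 transfectants. It is not that of the 2 Slug samples, whose SD for WNT7A was 0.08. No ligand passed in Snail (of 5) or E47 (of 6), where WNT7A had means of 0.18 and 0.31. Among receptors, 2 of 12 were higher in Slug, FZD2, a Frizzled receptor, and PTK7, a pseudokinase coreceptor (0.47). FZD2 had 0.63 in Slug 2 and 0.73 in Slug 1 (mean 0.68 ± 0.13, SE, adjusted p = 0.0098) and lost the call without Slug 1. In Snail its mean was 0.34 and in E47 0.21, and none of 11 receptors passed in either. Of 3 secreted inhibitors measured, SFRP2, SFRP4 and FRZB, which bind Wnt proteins, none passed.

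In the cytoplasm 4 of 15 genes were higher in Slug. GSK3A, a kinase of the beta-catenin destruction complex, had 1.32 in Slug 2 and 1.29 in Slug 1, with a mean of 1.30 ± 0.13 (SE, n = 2, adjusted p = 0.0016) or 2.47-fold. AXIN1, the scaffold of that complex, had 0.50 in Slug 2 and 0.96 in Slug 1 (mean 0.73 ± 0.15, adjusted p = 0.0131). PPP2R1A, the scaffold of phosphatase 2A, had 0.58 and 0.68 (mean 0.63 ± 0.12, adjusted p = 0.0085), and DVL3, a Dishevelled protein, had a mean of 0.49. AXIN1 and PPP2R1A lost the Slug call without Slug 1. In Snail PPP2R1A was higher by 0.50 ± 0.12 (adjusted p = 0.0413) and lost the call without either Snail or either E47 sample. Beta-catenin itself, CTNNB1, did not pass in any transfectant, with means of 0.20 in Slug, 0.29 in Snail and 0.24 in E47.

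In the nucleus 4 of 7 were higher in Slug. EP300, a histone acetyltransferase and coactivator, had 1.17 in Slug 2 and 1.07 in Slug 1 (mean 1.12 ± 0.12, SE, n = 2, adjusted p = 0.0016). SMARCA4, an ATPase of chromatin remodelling complexes, had 0.97 and 1.01 (mean 0.99 ± 0.23, adjusted p = 0.0206). CREBBP, the paralog of EP300, had 0.64 and 0.64 (mean 0.64 ± 0.13, adjusted p = 0.0120), and BCL9, a beta-catenin cofactor, had 0.45. SMARCA4 and CREBBP lost the call without either Slug sample. No nuclear gene passed in Snail (of 6) or E47 (of 7). TLE2, the other listed Groucho family gene on the array, did not pass in Slug and lacked a value in 1 or more samples of Snail and E47.

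Of 16 genes of the non-canonical branches, 3 were higher in Slug. PPP3CB, a calcineurin subunit, had 0.57 in Slug 2 and 0.62 in Slug 1 (mean 0.60 ± 0.12, SE, n = 2, adjusted p = 0.0125). PRKCA, a protein kinase C, had 0.67 and 0.41 (mean 0.54 ± 0.13, adjusted p = 0.0244). CELSR3, a polarity cadherin, had 0.49 and 0.53 (mean 0.51 ± 0.13, adjusted p = 0.0246). All 3 were lost without Slug 1 and also without Slug 2. In Snail ROCK2, a kinase downstream of RHOA, was lower, at -0.42 in Snail 2 and -1.06 in Snail 1 (mean -0.74 ± 0.18, adjusted p = 0.0497). It lost the call without any one Snail or E47 sample. In E47 MAPK9, a JNK kinase, had 0.78 in E47 2 and 0.77 in E47 1 (mean 0.78 ± 0.13, adjusted p = 0.0157), and lost the call without either.

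Of 15 genes listed as targets of beta-catenin, which also answer to other pathways, 5 were higher in Slug. VEGFA, an angiogenic growth factor, had 2.07 in Slug 2 and 1.91 in Slug 1, and CCN1, a matricellular protein, had 1.45 and 1.43 (mean 1.44 ± 0.13, SE, n = 2, adjusted p = 0.00081). CCN2, its relative, had 1.11 and 1.23 (mean 1.17 ± 0.13, adjusted p = 0.0016). CCND1, cyclin D1, had 0.66 and 0.73 (mean 0.69, adjusted p = 0.0073), and BIRC5, the inhibitor of apoptosis survivin, had 0.55 and 0.53 (mean 0.54, adjusted p = 0.0219). CCND1 lost the Slug call without Slug 1, and BIRC5 without either.

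In Snail CCND1 and MYC, a growth-promoting transcription factor, were lower and CCN2 higher. MYC had -2.02 in Snail 2 and -1.24 in Snail 1, and CCND1 had -0.69 and -0.91. CCN2 had 0.75 and 0.44 (mean 0.60 ± 0.13, SE, n = 2, adjusted p = 0.0336). The call of CCND1 was lost without either Snail sample, and that of CCN2 without either Snail or either E47 sample.

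In E47, 4 of 15 of these genes were higher. VEGFA had 1.34 in E47 2 and 1.06 in E47 1 (mean 1.20 ± 0.13, SE, n = 2, adjusted p = 0.0028), and CCN2 had 1.00 and 1.12 (mean 1.06 ± 0.13, adjusted p = 0.0050). ID2, an inhibitor of bHLH factors, had 1.42 and 0.70 (mean 1.06 ± 0.17, adjusted p = 0.0146). CCND1 had 0.76 and 0.70 (mean 0.73 ± 0.12, adjusted p = 0.0157). All 4 lost the call without E47 2, and CCND1 also without E47 1. CCND1 was thus above the control in Slug and E47 and below it in Snail.

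**Figure D4:**
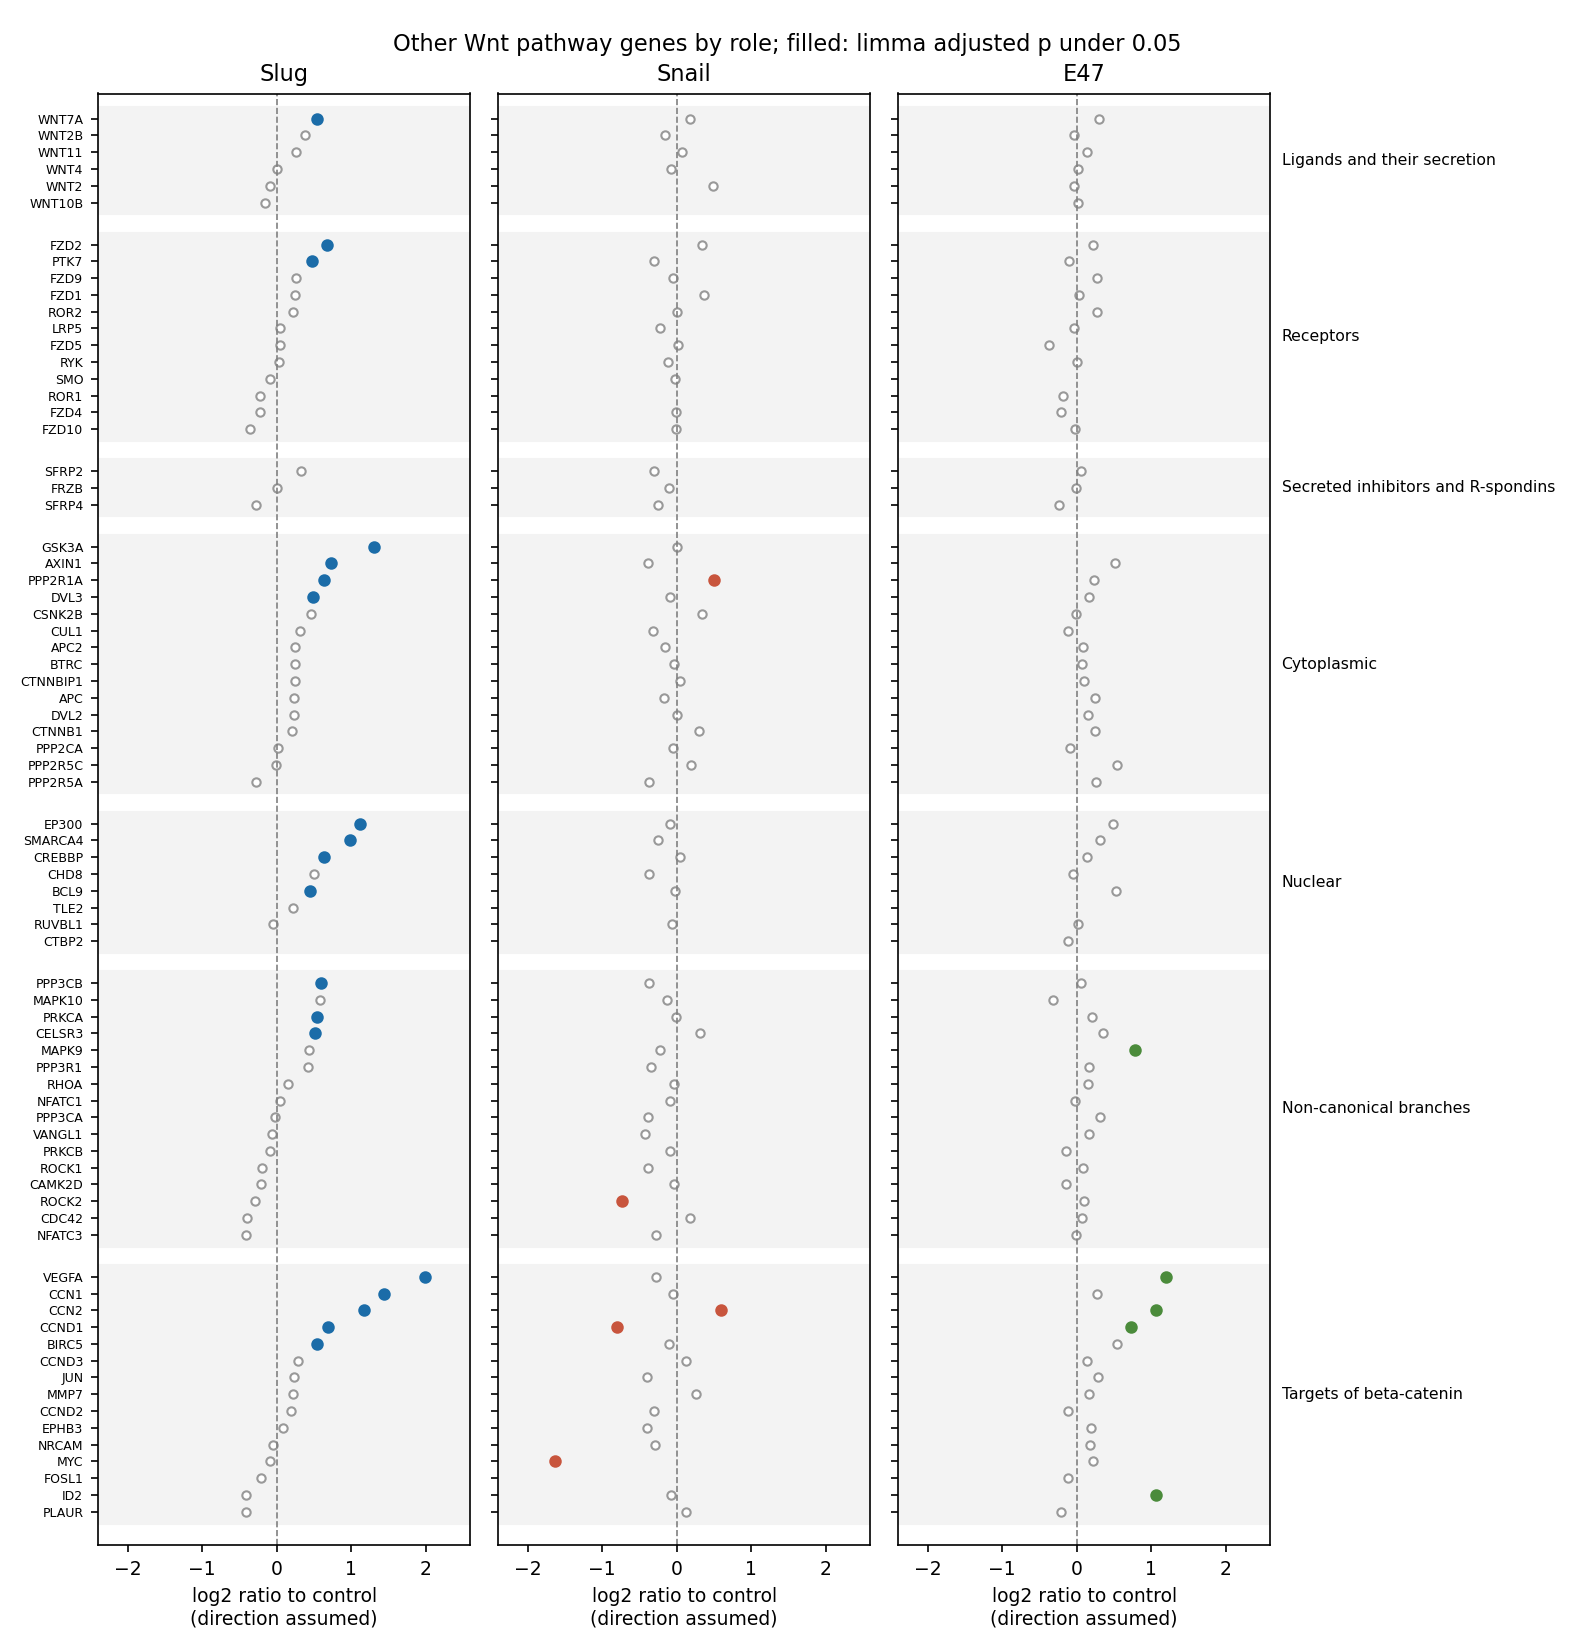
Mean log2 ratio to the control (horizontal axis, direction assumed) of the 75 other Wnt genes on the array, grouped by role and ordered within a role by the Slug value, with a panel each for Slug, Snail and E47; filled points have a limma adjusted p under 0.05. In Slug the 19 filled points all lie above 0, in Snail 2 lie above and 3 below, and in E47 all 5 lie above.

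Compared directly, 12 of 70 other Wnt genes (17.1%) were higher in Slug than in Snail and 0 lower (23 and 3 unadjusted). Over all genes 9.14% were higher and 4.08% lower in that contrast. These shares were 0.262% and 0.524% for Slug minus E47, and 0.166% and 2.41% for Snail minus E47. Between Slug and Snail the widest gap was that of VEGFA, whose mean was 1.99 in Slug and -0.28 in Snail (difference 2.27 ± 0.18, SE, limma adjusted p = 0.0032). The count was 5 without Snail 1 and 7 without Snail 2. Between Slug and E47, CCN1 was higher in Slug (1.44 against 0.27, adjusted p = 0.0388) and ID2 lower (-0.41 against 1.06, adjusted p = 0.0473), of 71 tested. The call of CCN1 was lost without any 1 of the 6 samples, and that of ID2 without any 1 except E47 1. Between Snail and E47, 4 of 68 were lower in Snail and 0 higher (19 and 1 unadjusted): MYC (-1.63 against 0.22), CCND1 (-0.80 against 0.73), VEGFA (-0.28 against 1.20) and MAPK9 (-0.23 against 0.78). All 4 were lost without E47 2, and MAPK9 and VEGFA also without either Snail sample. MAPK9 was also lost without E47 1, CCND1 without Snail 1 and MYC without Snail 2.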

How the data were processed

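RNA of 3 MDCK transfectants was hybridised against MDCK-CMV control RNA on 12 arrays. The deposited table holds log2 ratios of the 2 channels, already normalised by the authors: array medians lay between -0.0634 and 0.0594. That they are log2 was checked from their antilogs, which are whole thousandths for low values on every array. Details of scanning, background correction, normalisation and missing cells were not given in the sources used here, and signal over background was not used.

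The platform's annotation gave 8047 probes 1 symbol, 276 several and 4733 none; only probes with 1 symbol were used. Signs were turned on 5 arrays and kept on 7. Spots were averaged per clone, clones per gene, and the 2 dye arrays of a numbered sample to 1 replicate. limma 3.58.1 in R 4.3.3 fitted the 3 transfectants without an intercept (prior df 4.85, prior SD 0.203), two-sided against 0 and between pairs, with Benjamini-Hochberg adjustment over all genes with both replicates; a gene was called at an adjusted p under 0.05. The script was tested on simulated data.

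The members and the gene lists were chosen with earlier results of these data known. Of the other Wnt genes, 23 were called against the control, all on 1 side of 0 on all 4 arrays of that transfectant. The 20 with the largest change are described by sample. For each of the 5 genes, the 3 genes with the highest r over 12 arrays are given. SNAI1 and TCF3 were read to check labels, while CDH1 lies below 0 by the choice of signs. PTK7, DVL3, BCL9, CTNNB1, TLE2 and the secreted inhibitors were named outside this rule after their values were seen. Marker lists held 10 epithelial, 9 fibroblast or mesenchymal, 5 leukocyte and 4 endothelial genes, of which not all were tested. In Slug, Snail and E47, 3 of 7, 3 of 6 and 3 of 6 epithelial genes were lower. Of the fibroblast or mesenchymal genes, 2 of 6, 3 of 6 and 3 of 7 were higher and 0, 1 and 0 lower. Of the leukocyte genes, 2 of 3, 1 of 3 and 0 of 3 were lower. Of the endothelial genes, 1 of 3, 0 of 2 and 0 of 3 were higher. Over all genes, 12.2%, 2.15% and 3.81% were higher and 9.62%, 5.07% and 1.49% lower. Alternatives tried were orientation by dye, centring, scaling, missing values, each dye alone, medians over spots, a replicate block, separate fits, a random block and leaving out each sample.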

Additional observations from a re-analysis of the deposited data

Results flagged for a closer look

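FZD6 lay below 0 on all 4 Slug arrays and above 0 on all 4 E47 arrays, with means of -0.16 and 0.76 and a difference of -0.92. Its clone 1 did the same, with means of -0.33 and 0.67 and a difference of -1.0. Its clone 2 did not, as 2 of its 4 Slug arrays lay above 0 (mean 0.01). FZD6 clone 2 lay below 0 on all 4 Snail arrays and above 0 on all 4 E47 arrays, with a difference of -1.40, and so did TLE1 clone 2, with a difference of -0.71. FZD6 clone 1 and TLE1 clone 1 did not, with 2 and 3 of 4 Snail arrays above 0. How many of all genes or clones lie on opposite sides in this way was not tested. In limma's fit at the level of the gene, neither FZD6 between Slug and E47 nor FZD6 or TLE1 between Snail and E47 was called; the single clones were not tested, and both genes were picked on these ratios.

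Of 92 sets of 4 arrays checked, 3 held an array that stood apart from the other 3 by Dixon's test, and chance alone marks about 1 set in 20. For CCN2 it was E47 1 titled Cy5, at 1.23 with the others between 1.00 and 1.01. For ID2 it was Snail 1 titled Cy3, at -0.19 with the others between -0.05 and -0.02. For WNT7A it was the same Snail 1 array, at 0.85 with the others between -0.08 and -0.02.

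Other Wnt genes differed between transfectants by limma's contrast (Benjamini-Hochberg adjusted p over all genes). Slug exceeded Snail for VEGFA by 2.27 (adjusted p = 0.0032), MYC by 1.55 (0.0127), CCN1 by 1.49 (0.0052), CCND1 by 1.49 (0.0050), GSK3A by 1.30 (0.0094), SMARCA4 by 1.25 (0.0431), EP300 by 1.21 (0.0081), AXIN1 by 1.11 (0.0183) and PPP3CB by 0.97 (0.0142). Slug minus E47 was 1.17 for CCN1 (0.0388) and -1.47 for ID2 (0.0473). Snail minus E47 was -1.85 for MYC (0.0205), -1.52 for CCND1 (0.0132), -1.48 for VEGFA (0.0132) and -1.0 for MAPK9 (0.0364). Both means of each pair are on the same log2 scale as above, and MYC had -0.08 in Slug, -1.63 in Snail and 0.22 in E47.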

How the results depend on the processing

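The orientation of the arrays decides every direction. With arrays turned by the dye in the title instead, limma called 0 genes in any of the 6 comparisons (49 to 209 at an unadjusted p under 0.05), no member and no other Wnt gene among them, and 28 called values changed sign: for Slug over control FZD7 -0.25, CCN1 -0.11, CCN2 -0.057, GSK3A -0.14, PPP2R1A -0.16, CREBBP -0.047, CELSR3 -0.16, PRKCA -0.0038 and WNT7A -0.062; for Snail CCN2 -0.14, PPP2R1A -0.042, CCND1 0.24 and ROCK2 0.12; for E47 FZD6 -0.32, FZD7 -0.46, CCN2 -0.44, CCND1 -0.41, ID2 -0.64, MAPK9 -0.40 and VEGFA -0.49; for Slug minus Snail CCN1 -0.15, CCND1 -0.083 and GSK3A -0.11; for Slug minus E47 ID2 0.66; for Snail minus E47 CCND1 0.66, MAPK9 0.41, MYC 0.026 and VEGFA 0.33. No called value changed sign under any other alternative run. Counts of other Wnt genes called moved from 19 in Slug to 11 with arrays scaled to 1 spread, 9 with arrays titled Cy5 alone, 7 with Cy3 alone and 12 with Slug fitted alone; from 5 in Snail to 2 (Cy5), 1 (Cy3) and 10 (12 arrays with a random block); and from 5 in E47 to 10 (scaled), 1 (Cy3), 9 (fitted alone) and 11 (random block). Slug minus Snail gave 4 (Cy3) and 21 (random block) in place of 12, Slug minus E47 1 (1 array per sample enough, or Cy5) and 0 (scaled, or Cy3) in place of 2, and Snail minus E47 0 (Cy3) and 12 (random block) in place of 4. Members called in Snail were 2 (centred, scaled, or genes on all 12 arrays, adding WNT5A), 3 (fitted alone or random block, adding WNT5A and WNT5B) and 0 (Cy3, without FZD7) in place of 1, and in E47 1 (median over spots, without FZD6) and 0 (Cy3) in place of 2, or 3 (fitted alone or random block, adding WNT5A). With Cy5 alone WNT5A took the place of FZD7 in Snail and in E47, and FZD7 lost the Slug call; scaled, WNT5A lost the Slug call. Slug minus Snail gave 0 members (scaled, Cy5 or Cy3) in place of 1, TLE1, Slug minus E47 2 (random block, FZD6 and WNT5B) in place of 0, and Snail minus E47 1, FZD6 (scaled, genes on all 12 arrays or random block) in place of 0. The labels do not say whether the sample numbers pair the samples across transfectants. The r of sample 2 minus sample 1 over 3537 genes was 0.02 for Slug and Snail and -0.07 for Slug and E47. It was 0.23 for Snail and E47, and whether these share a batch by sample number was not tested. With the replicate block, Snail minus E47 gave 1 member, FZD6, in place of 0, E47 over control gave 3 members, WNT5A added, in place of 2, and Snail over control gave 1, WNT5A in place of FZD7; the other counts of members and of other Wnt genes moved by less than 1.5 times. Leaving out 1 sample at a time, where a lone sample is assumed to vary like the other groups, gave 6 to 21 other Wnt genes in Slug, 1 to 5 in Snail, 0 to 7 in E47, 5 to 11 for Slug minus Snail, 0 to 1 for Slug minus E47 and 0 to 5 for Snail minus E47, and 2 to 4 members in Slug, 0 to 2 in Snail, 0 to 2 in E47, 0 to 1 for Slug minus Snail and 0 for the other contrasts. Over all genes and alternatives the calls ran from 0 to 1187 in Slug (885 as reported), 0 to 568 in Snail (272), 0 to 435 in E47 (210), 0 to 840 for Slug minus Snail (486), 0 to 189 for Slug minus E47 (30) and 0 to 387 for Snail minus E47 (93). The cause of these moves was not tested, beyond the fewer arrays or samples that some alternatives hold. Signal over background was not part of the values, so that dim spots cannot be told from bright ones.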
